A study of Mus musculus with 2 samples.

Results

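The miR-23, miR-27 and miR-24 microRNAs come from a pair of paralogous gene clusters, and 8 mature forms of them were followed in the mouse liver. The 8 names were mmu-miR-23a-3p, mmu-miR-23b-3p, mmu-miR-27a-3p, mmu-miR-27a-5p, mmu-miR-27b-3p, mmu-miR-27b-5p, mmu-miR-24-3p and mmu-miR-24-2-5p, written without the prefix mmu (mouse) hereafter. They were taken by exact name out of the 484 microRNAs of the first deposited table and the 1915 of the second, and all 8 were listed in both. The livers were from wild-type female C57BL/6 mice of 8 to 10 weeks. After 5 days on a liquid control diet, the ethanol-fed mice were given 5% (v/v) ethanol in a Lieber-DeCarli diet during 10 days and were gavaged on day 16 with 6 g/kg ethanol. The pair-fed mice received an isocaloric control diet and isocaloric dextrin-maltose by gavage, and both were killed 9 h after the gavage. Each table, called experiment 1 and experiment 2, held 1 library of each condition, and the sources used here do not state how many animals went into a library. In the values below, "without ethanol" stands for the pair-fed and "with ethanol" for the ethanol-fed library.

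A microRNA gene is transcribed as a longer RNA that is cut to a hairpin and then to a short duplex, and either arm of the duplex, named 5p or 3p, can be loaded into an Argonaute protein. The seed, bases 2 to 8 from the 5′ end, pairs with messenger RNAs and mainly determines which of them are repressed. The clusters are known to be expressed in endothelial cells, among others. miR-27 is known as a regulator of lipid metabolism and of adipocyte differentiation, miR-23 as a repressor of mitochondrial glutaminase, and miR-24 as a repressor of cell cycle genes.

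The genes lie in the order miR-23, miR-27 and miR-24 at both loci, on the plus strand. In the RefSeq annotation of mouse assembly GRCm38.p6, Mir23a, Mir27a and Mir24-2 occupy chr8:84208518-84208921, a span of 404 bp. Mir23b, Mir27b and Mir24-1 occupy chr13:63300484-63301275, a span of 792 bp. In GENCODE vM21 the chromosome 13 hairpins lie inside the protein-coding gene 2010111I01Rik (Aopep in RefSeq), an aminopeptidase gene, and overlap 0 exons of its protein-coding transcripts. Exons of noncoding or nonsense-mediated decay transcripts of the same gene cover Mir27b and Mir24-1. Fancc overlaps this locus on the opposite strand. No host gene contains the chromosome 8 hairpins, of which Mir24-2 overlaps the lincRNA Gm26532 by 2 bp. The strand opposite each miR-24 hairpin carries another microRNA gene, Mir3074-2 or Mir3074-1. Its form miR-3074-5p, looked up after the other values had been seen, had 1.10 and 3.52 RPM in experiment 2 and 0 and 1 reads in experiment 1, far below miR-24-3p.

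Mature sequences for 7 of the 8 members were found in the RefSeq table (GRCm38.p6), the remaining name being miR-23b-3p. They are shown because shared seeds and near-identical copies decide which forms can be told apart in the read counts. Capitals mark the seed, and the last sequence is of miR-24-1-5p, which is not a member but marks the second miR-24 gene.
miR-23a-3p: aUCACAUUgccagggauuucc
miR-27a-3p: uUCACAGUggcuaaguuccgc
miR-27b-3p: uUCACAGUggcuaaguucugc
miR-24-3p: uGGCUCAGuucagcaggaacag
miR-27a-5p: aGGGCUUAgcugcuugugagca
miR-27b-5p: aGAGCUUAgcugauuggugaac
miR-24-2-5p: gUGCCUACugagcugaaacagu
miR-24-1-5p: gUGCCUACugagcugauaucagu

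The forms miR-27a-3p (chr8:84208727-84208747) and miR-27b-3p (chr13:63300760-63300780) share their seed and 20 of 21 bases. The single substitution is C19U, counted from 1 at the 5′ end with the base of miR-27a-3p first. Reads that end before base 19 therefore cannot be assigned to either gene, and the sources used here do not say how such reads were counted. The opposite arms differ more. miR-27a-5p (chr8:84208685-84208706) and miR-27b-5p (chr13:63300718-63300739) differ at 8 of 22 bases, and the substitution G3A lies in the seed. Mature miR-24-3p has the same sequence at both loci, chr8:84208875-84208896 and chr13:63301251-63301272, so that its reads are the sum of the pair of genes. Only the 5p arms separate these genes. miR-24-2-5p (chr8:84208839-84208860) and miR-24-1-5p share the seed and differ at 5 of the first 22 bases. Among the 1679 mature names of the RefSeq table, the miR-27 seed was found in 2 names, both of them members here, and the seed of miR-23a-3p (chr8:84208563-84208583) in 1 name. As miR-23b-3p was missing there, this count does not show whether the miR-23 paralogs share their seed. The bases of the miR-23 paralogs were not compared. The miR-24-3p seed was found in 5 names.

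In experiment 1, reads on microRNAs numbered 4170601 without and 4311802 with ethanol. Experiment 2 was deposited as RPM (reads per 1000000 reads on microRNAs), whose step between low values corresponds to about 10811767 and 10819711 reads. Read numbers of experiment 2 are therefore estimates. The count of each library was turned into RPM, and 95% exact binomial (Clopper-Pearson) intervals were computed from reads. They cover counting error only, because PCR copies were not told apart and because no condition had a second library in a table. Within a table there was no test between conditions, and "higher" and "lower" below compare libraries. The hepatocyte microRNAs miR-122-5p and miR-192-5p were present in all libraries, but at unlike levels. miR-122-5p had 2971 RPM without and 2210 RPM with ethanol in experiment 1, against 182938 and 156660 RPM in experiment 2, whereas miR-192-5p had 388161 and 373090 RPM in experiment 1 and 117318 and 109724 RPM in experiment 2.

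Together, the 8 members made up 1.31% (95% interval 1.30% to 1.32%) of the microRNA reads without ethanol and 1.20% (1.19% to 1.21%) with ethanol in experiment 1. In experiment 2 their share was 1.93% (1.92% to 1.93%) without and 2.39% (2.38% to 2.40%) with ethanol. The sum was therefore 0.917-fold in the ethanol-fed library of experiment 1 and 1.24-fold in that of experiment 2, on opposite sides of equal levels. The 3p arms alone accounted for 1.30% and 1.20% in experiment 1 and for 1.91% and 2.37% in experiment 2.

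miR-27b-3p was by far the most abundant form. It had 12457 RPM without and 11451 RPM with ethanol in experiment 1, and 13122 and 16034 RPM in experiment 2. It ranked 11 and 13 among all microRNAs of the experiment 1 libraries and 15 and 14 in experiment 2. Within the 8 members it took 95.1% and 95.3% of the reads in experiment 1, but 68.1% and 67.0% in experiment 2. It thus held a similar place among all microRNAs in the 4 libraries, while its weight within the family differed between the experiments.

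The next forms changed order between the experiments. Without ethanol in experiment 1, miR-27a-3p had 200.5 RPM (187 to 215) and miR-24-3p had 184 RPM (172 to 198), and these intervals overlapped. They were followed by miR-23b-3p with 116 RPM, miR-23a-3p with 79.1 RPM, miR-27b-5p with 41.0 RPM, miR-24-2-5p with 17.0 RPM and miR-27a-5p with 7.67 RPM. Without ethanol in experiment 2, miR-24-3p followed miR-27b-3p with 2629 RPM, and miR-27a-3p came after it with 1867 RPM. Behind them were miR-23b-3p with 1074 RPM, miR-23a-3p with 407 RPM, miR-24-2-5p with 139 RPM, miR-27a-5p with 11.9 RPM and miR-27b-5p with 7.77 RPM. The ethanol-fed library had the same order as the pair-fed one within each experiment. In the ethanol-fed library of experiment 1, however, the intervals of miR-27b-5p (23.7 to 34.0 RPM) and miR-24-2-5p (17.4 to 26.4 RPM) overlapped.

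**Figure D1:**
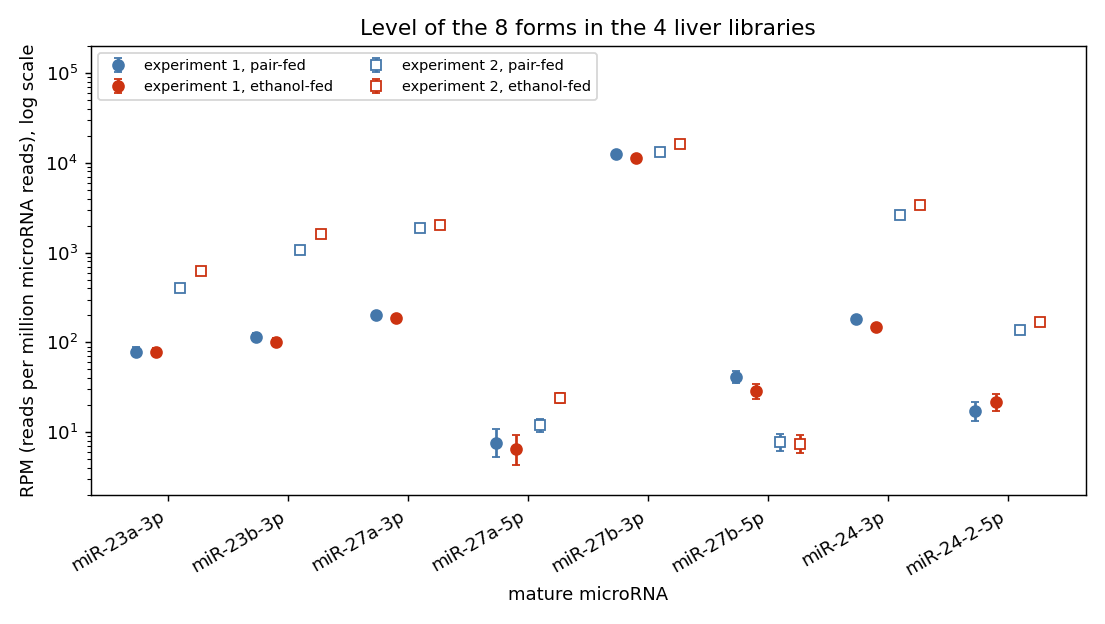
The level of each of the 8 mature forms is plotted in RPM on a log axis for the 4 libraries, with filled circles for experiment 1, open squares for experiment 2, blue for pair-fed and red for ethanol-fed; bars are 95% counting intervals. miR-27b-3p lies between 11451 and 16034 RPM in all 4 libraries, whereas miR-24-3p is at 147 to 184 RPM in experiment 1 and 2629 to 3430 RPM in experiment 2.

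In experiment 1 the ethanol-fed library had lower levels of 7 of the 8 members (6 of 8 with unscaled reads or median-of-ratios size factors), where 51.3% of the 302 microRNAs tested were lower. miR-24-3p had 769 reads (184 RPM) without and 635 reads (147 RPM) with ethanol, 0.799-fold (0.718 to 0.888). miR-27b-5p, the minor arm of its hairpin, had 171 and 123 reads, 0.696-fold (0.547 to 0.882). miR-27b-3p had 51951 and 49373 reads, 0.919-fold (0.908 to 0.931). These 3 members had intervals below 1, where 29.1% of the 302 had one. Among forms with at least 1000 reads, this was so for 2 of 3 members and 43.9% of 82 microRNAs. The other 4 lower members lay within the counting error. miR-23b-3p had 483 and 439 reads, 0.879-fold (0.771 to 1.00). miR-27a-3p had 836 and 800 reads, 0.926-fold (0.839 to 1.02). For miR-27a-5p with 32 and 28 reads, the depth did not allow a difference to be detected, since the interval ran from 0.491-fold to 1.45-fold. miR-23a-3p was almost level with 330 and 339 reads (79.1 and 78.6 RPM), 0.994-fold (0.851 to 1.16), and moved to the higher side with unscaled reads or median-of-ratios size factors. The exception was miR-24-2-5p with 71 and 93 reads, 1.27-fold, whose interval of 0.920 to 1.75 also included 1.

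In experiment 2 the ethanol-fed library had higher levels of 7 of the 8 members, where 50.3% of the 469 microRNAs tested were higher. All 7 had intervals above 1, where 31.6% of the 469 had one. Among forms with at least 1000 reads, this was so for 6 of 6 members and 47% of 151 microRNAs. The miR-23 forms differed most among the 3p arms. miR-23a-3p had 407 RPM without and 629 RPM with ethanol, 1.55-fold (1.49 to 1.61). miR-23b-3p had 1074 and 1602 RPM, 1.49-fold (1.46 to 1.53), so that the intervals of the paralogs overlapped. miR-24-3p went from 2629 to 3430 RPM, 1.30-fold (1.28 to 1.33). The miR-27 forms were lowest, with 1.22-fold for miR-27b-3p (1.21 to 1.23; 13122 and 16034 RPM) and 1.09-fold for miR-27a-3p (1.07 to 1.12; 1867 and 2043 RPM). Summed over their 3p forms, miR-23 was 1.51-fold (1.48 to 1.54) and miR-27 1.21-fold (1.20 to 1.21), so that the 3 families differed from one another in their ratio by more than counting error, and so did the miR-27 paralogs.

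Of the miR-27 5p arms of experiment 2, only miR-27a-5p had another ratio than its 3p partner beyond counting error. miR-27a-5p had about 129 reads (11.9 RPM) without and 259 reads (23.9 RPM) with ethanol, 2.01-fold (1.62 to 2.50), the highest ratio of the members. miR-27b-5p, with about 84 and 80 reads (7.77 and 7.39 RPM), was 0.951-fold (0.692 to 1.31) and the only member without a higher level. Its interval contained that of miR-27b-3p (1.21 to 1.23). miR-24-2-5p had 139 and 168 RPM, 1.21-fold (1.13 to 1.29), with an interval that overlapped that of miR-24-3p.

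**Figure D2:**
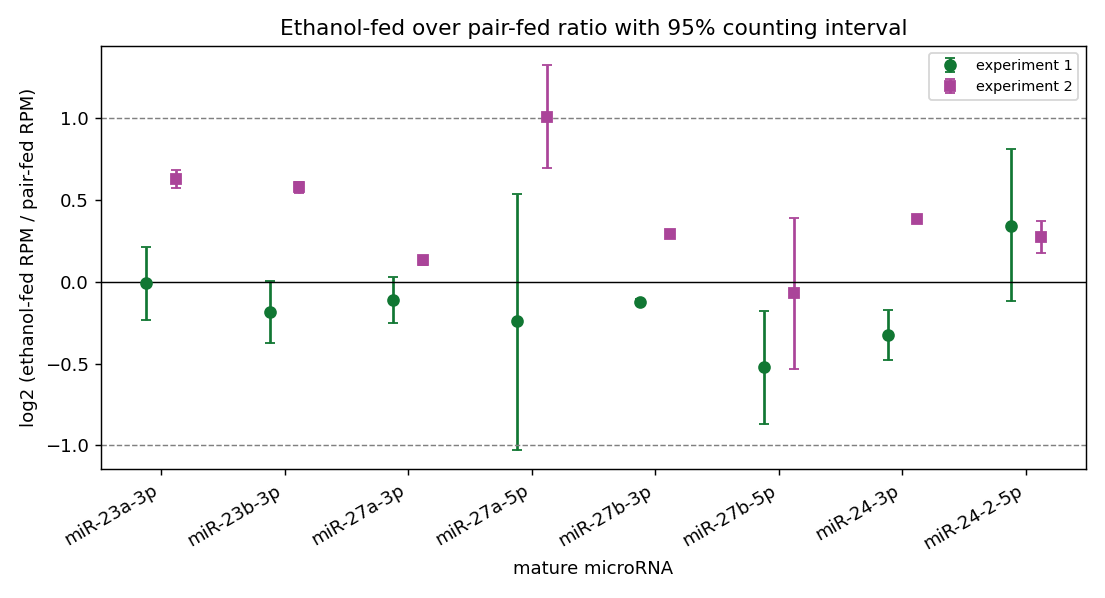
Points give the RPM with over without ethanol as log2 ratios, with no pseudocount, for each member in experiment 1 (green circles) and experiment 2 (purple squares) with 95% counting intervals; the dashed lines mark 2-fold. All 5 forms of the 3p arm are below the line of equal levels in experiment 1 and above it in experiment 2, although miR-23a-3p, at 0.994-fold in experiment 1, is above it with unscaled reads or median-of-ratios size factors.

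The members were also set against the whole tables. With 1 read added to each library, 0 of the 8 members were at least 2-fold higher or lower in experiment 1, where 25.5% of the 302 microRNAs were, and 0 of 8 in experiment 2, where 25.8% of 469 were. Of those 469, 67 were at 0 in 1 of the 2 libraries, against 2 of the 302. In experiment 2 a 0 can stand for fewer than 10 reads, so that its share past 2-fold depends in part on this listing limit. In both tables a much smaller share of the microRNAs with at least 1000 reads was past 2-fold. The absence of abundant members past 2-fold therefore does not set them apart. miR-27a-5p lay on the boundary in experiment 2 with a log2 ratio of 1.00, and was counted as 2-fold higher when less or no pseudocount was added or when the most abundant microRNA was left out of the total. The median log2 ratio of the members was -0.15 in experiment 1, with a range of -0.52 to 0.34, and that of all tested microRNAs was -0.013, with quartiles of -0.55 and 0.48. In experiment 2 the members had a median of 0.34 and a range of -0.071 to 1.00, against 0.0026 for all tested and quartiles of -0.42 and 0.38. Much of the spread of all microRNAs came with low levels. Among the 82 microRNAs with at least 1000 reads in experiment 1, the median was 0.045 and the quartiles were -0.29 and 0.20, with miR-24-3p below the lower one at -0.32. For the 151 of experiment 2 the median was 0.047 and the quartiles were -0.20 and 0.23, so that miR-23a-3p, miR-23b-3p, miR-24-3p, miR-27b-3p and miR-24-2-5p lay above the upper one with log2 ratios of 0.63, 0.58, 0.38, 0.29 and 0.27.

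**Figure D3:**
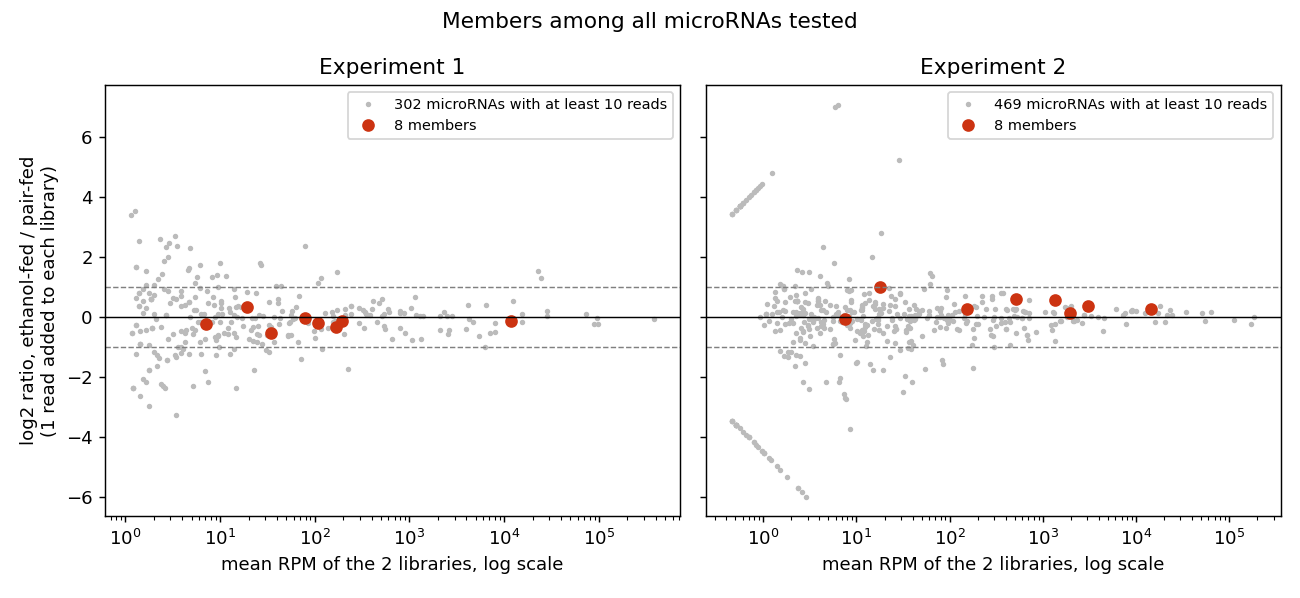
The log2 ratio with over without ethanol, after adding 1 read to each library, is plotted against the mean RPM on a log axis for the 302 microRNAs of experiment 1 and the 469 of experiment 2 with at least 10 reads; red points are the 8 members and dashed lines mark 2-fold. The members stay within the dashed lines in both experiments, and the diagonal streaks in experiment 2 are microRNAs listed at 0 in 1 library.

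Shares within a library do not depend on how libraries are scaled. They do depend on how reads that fit both paralogs were counted, which seems to differ between the tables. Without ethanol, miR-486a-5p and miR-486b-5p had the same 818 RPM in experiment 2, but 11512 and 14092 RPM in experiment 1. Whether reads of the pairs below were counted under both names is not known, and the intervals take them as separate. The chromosome 8 form made up 40.6% of the miR-23 reads of the 3p arm without ethanol (37.2% to 44.1%) and 43.6% with ethanol (40.1% to 47.1%) in experiment 1. In experiment 2 it was 27.5% (26.8% to 28.2%) and 28.2% (27.6% to 28.8%). Neither experiment showed a difference between conditions beyond the overlap of these intervals. For miR-27, miR-27a-3p was 1.58% (1.48% to 1.69%) and 1.59% (1.49% to 1.71%) of the paired reads in experiment 1. In experiment 2 it was 12.5% (12.3% to 12.6%) without and 11.3% (11.2% to 11.4%) with ethanol, lower beyond counting error. The chromosome 13 form prevailed among the 3p reads in all 4 libraries for both families.

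The 5p arms of miR-27 gave another balance. miR-27a-5p was 15.8% (11.0% to 21.5%) and 18.5% (12.7% to 25.7%) of the 5p reads of the pair in experiment 1, but 60.6% (53.7% to 67.2%) and 76.4% (71.5% to 80.8%) in experiment 2. The form from chromosome 8 was thus the minor one in experiment 1 and the major one in experiment 2, and its share was higher in the ethanol-fed library of experiment 2 beyond counting error. For miR-24, miR-24-2-5p made up 89.4% (87.8% to 90.8%) and 91.4% (90.1% to 92.6%) of the 5p reads of its pair in experiment 2, where miR-24-1-5p had 16.6 RPM without and 15.8 RPM with ethanol. miR-24-1-5p was not listed in experiment 1.

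**Figure D4:**
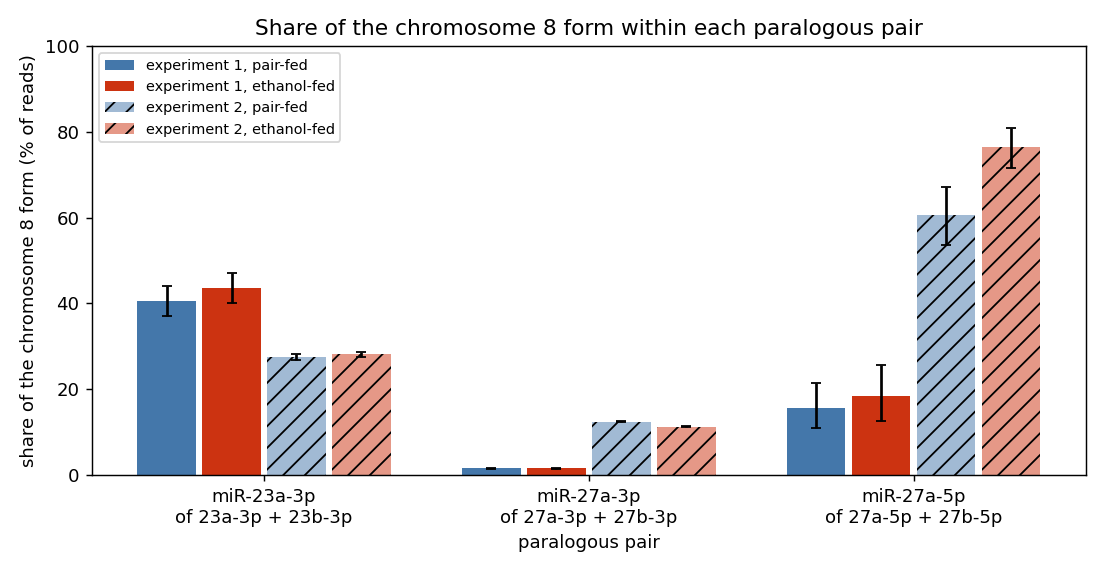
Bars give the chromosome 8 form as a percentage of the reads of each paralogous pair (miR-23 3p, miR-27 3p and miR-27 5p) in the 4 libraries, solid for experiment 1 and hatched for experiment 2, with 95% counting intervals. miR-27a-3p stays at or under 12.5% in every library, whereas miR-27a-5p goes from 15.8% and 18.5% in experiment 1 to 60.6% and 76.4% in experiment 2.

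In the miR-27a and miR-27b hairpins the 3p arm dominated. The arm shares of each miR-24 hairpin are unknown, because reads of miR-24-3p cannot be assigned to either gene. Of the reads of the miR-27a hairpin, 3.69% (2.54% to 5.16%) and 3.38% (2.26% to 4.85%) were of the 5p arm in experiment 1, against 0.635% (0.530% to 0.754%) without and 1.16% (1.02% to 1.31%) with ethanol in experiment 2. For the miR-27b hairpin the shares were 0.328% and 0.249% in experiment 1 and 0.0592% and 0.0461% in experiment 2. The 5p share of miR-27a was higher than that of miR-27b in all 4 libraries. miR-24-2-5p corresponded to 8.45% (6.66% to 10.5%) and 12.8% (10.4% to 15.4%) of its reads together with miR-24-3p in experiment 1, and to 5.03% (4.78% to 5.28%) and 4.67% (4.47% to 4.89%) in experiment 2, although miR-24-3p also counts the product of Mir24-1. The miR-23 5p arms were scarce. miR-23b-5p was listed in experiment 2 at 3.24 RPM without and 1.29 RPM with ethanol, about 35 and 14 reads, 0.398-fold (0.199 to 0.762), while its partner miR-23b-3p was higher there. miR-23a-5p was listed at 0 in both libraries of experiment 2, which can stand for fewer than 10 reads, and neither miR-23 5p arm was listed in experiment 1.

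Forms cut from the same primary transcript were present at unequal levels, and the inequality differed between experiments. miR-27b-3p had 108 times the reads of miR-23b-3p (98.3 to 118) without ethanol and 112 times (102 to 124) with ethanol in experiment 1. In experiment 2 these ratios were 12.2 (12.0 to 12.5) and 10.0 (9.85 to 10.2). On chromosome 8, miR-27a-3p had 2.53 times (2.23 to 2.89) and 2.36 times (2.08 to 2.69) the reads of miR-23a-3p in experiment 1, and 4.59 times (4.44 to 4.74) and 3.25 times (3.16 to 3.34) in experiment 2. Within experiment 2, both ratios of miR-27 to miR-23 were thus lower in the ethanol-fed library beyond counting error. Grouped by locus, the 4 forms made only on chromosome 8 summed to 0.960-fold (0.888 to 1.04) in experiment 1 and 1.18-fold (1.16 to 1.20) in experiment 2. The 3 forms made only on chromosome 13 summed to 0.918-fold (0.907 to 0.929) and 1.24-fold (1.23 to 1.25). miR-27b-3p carries most of the latter sum. Without it, the other 7 members summed to 0.883-fold (0.835 to 0.933) in experiment 1 and 1.29-fold (1.28 to 1.30) in experiment 2.

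Levels of most members differed more between the experiments than between the conditions. The tables were scaled separately and seem to have counted reads that fit more than 1 name differently, so these values are set side by side without a test. Between the pair-fed libraries, miR-24-3p was 14.3-fold, miR-27a-3p 9.31-fold, miR-23b-3p 9.27-fold, miR-24-2-5p 8.18-fold and miR-23a-3p 5.14-fold higher in experiment 2. These 5 members were past 2-fold, where 51.2% of the 283 microRNAs tested in both tables were, and the median of those 283 was 2.14-fold. miR-27a-5p was 1.55-fold and miR-27b-3p 1.05-fold higher, and miR-27b-5p was 5.28-fold lower, where 19.8% were at least 2-fold lower. Between the libraries with ethanol, 6 members were more than 2-fold higher in experiment 2, where 48.1% of the 283 were at least 2-fold higher and their median was 1.73-fold. miR-24-3p was 23.3-fold, miR-23b-3p 15.7-fold, miR-27a-3p 11.0-fold, miR-24-2-5p 7.80-fold and miR-27a-5p 3.69-fold higher there, with miR-23a-3p slightly above miR-24-2-5p. miR-27b-3p was 1.40-fold higher, and miR-27b-5p 3.86-fold lower, where 19.4% were at least 2-fold lower. The arms of the miR-27b hairpin thus differed in opposite directions between the tables in both conditions.

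The series lists 2 samples, 1 of each condition, and the columns of both tables were assigned to them by condition name. The study describes its sequencing as done in independent experiments, which the tables were taken to be, although the sample labels do not state whether other animals were used in each. On that basis, and after the values above had been seen, the pair of within-table log2 ratios was tested with limma over the 283 shared microRNAs, with 1 residual degree of freedom. This called 0 of the 8 members at a Benjamini-Hochberg adjusted p under 0.05, where 0% of all 283 were called. At an unadjusted p under 0.05 there were 10 of the 283 and 0 members. miR-24-2-5p, higher in 2 of 2 experiments but within counting error in experiment 1, had a mean log2 ratio of 0.30 ± 0.23 (moderated SE). Its adjusted p was 0.911. miR-27b-5p, lower in 2 of 2 but within counting error in experiment 2, had -0.30 ± 0.28 and the same adjusted p. Limma takes a moderated SE from a variance shrunk toward that of all 283 microRNAs. It is therefore not the spread of a single form between the experiments.

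Levels of markers of other liver cells were set beside those of the members. The endothelial forms miR-126a-3p and miR-126a-5p were higher in the ethanol-fed library in 2 of 2 cases in both experiments, their sum going from 3854 to 5142 RPM in experiment 1 and from 22335 to 26332 RPM in experiment 2. The miR-23, miR-27 and miR-24 sum went the same way only in experiment 2. Of the mesenchymal list (miR-143-3p, miR-145a-5p, miR-199a-3p and miR-214-3p), 3 of 4 were higher in experiment 1 and 2 of 4 in experiment 2, with sums of 96518 and 96073 RPM and of 18978 and 24067 RPM in pair-fed and ethanol-fed. The white cell list (miR-223-3p, miR-142a-3p, miR-142a-5p and miR-150-5p) was lower in 4 of 4 in both, from 404 to 335 RPM and from 872 to 463 RPM. The list for red cells (miR-144-3p, miR-451a and miR-486a-5p) was higher in 3 of 3 in experiment 1, from 11550 to 33896 RPM, and lower in 3 of 3 in experiment 2, from 1778 to 1124 RPM. No marker of these lists was at 0 in both libraries of a table, and the part of these cells in the differences was not tested.

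Over the 4 libraries, the pattern of the summed 3p members was compared with the 74 other microRNAs that had at least 1000 reads in both tables. The nearest, by Euclidean distance of log2 RPM centred on each mean, were miR-145a-3p (0.23), miR-107-3p (0.31) and miR-378a-3p (0.38). miR-145a-3p had 154 RPM without and 119 RPM with ethanol in experiment 1 and 184 and 261 RPM in experiment 2, so that it was lower in the former and higher in the latter. The corresponding values of miR-107-3p were 377, 397, 606 and 592 RPM, whose conditions differed in the other direction from those of the sum. miR-378a-3p, from an intron of Ppargc1b, had 6618, 4296, 9229 and 10620 RPM. As miR-27b-3p makes up most of the sum, this is mainly likeness to that form.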

How the data were processed

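Small RNAs from total liver RNA had been size-selected on a gel, amplified by RT-PCR and sequenced on an Illumina HiSeq instrument. For experiment 1 the authors deposited read counts per mature microRNA. For experiment 2 the authors deposited RPM, together with their own log2 fold change and p-value, of which neither was used; the deposited p-value compares 1 library with 1, and its test is not given in the sources used here. The aligner and the microRNA annotation are not given either, and the submitters' notes name the genome build mm8. The tables hold no coordinates, so that those printed are from GRCm38.p6.

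Columns were assigned to conditions by name, with 0 columns left unassigned. In experiment 2, the step of values under 60 RPM was 0.0925 RPM in the pair-fed library (96.5% of 173 distinct values on the step within 0.005 RPM) and 0.0924 RPM in the ethanol-fed library (97.0% of 165). It was taken as 1 read, and the lowest listed value was 10 reads. Counts were scaled to reads on microRNAs. Log2 ratios used a pseudocount of 1 read, which understates changes of scarce forms, and a minimum of 10 reads in both libraries together; 8 of 8 members passed in both tables. Folds and their exact 95% intervals, which are conditional on the summed reads, used no pseudocount. By the rule of 3 reads, a count of 0 allows up to 0.719 and 0.696 RPM in experiment 1. No p-value was computed within a table; limma 3.58.1, added once the values were known, was run on the pair of within-table log2 ratios with the experiment as block. Alternatives were other scalings, pseudocounts and minimums. All members were named, together with the other forms of the same hairpins and the 3 microRNAs of nearest pattern. The members and lists were chosen with earlier results of these data known. The computation was tested on simulated data. Intervals were computed with scipy 1.17.1, tables were handled with pandas 2.3.3 and numpy 2.4.6 in Python 3.11.15, and plots were drawn with matplotlib 3.10.9.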

Additional observations from a re-analysis of the deposited data

Results flagged for a closer look

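For 2 members the libraries differed in opposite directions in the experiments, each with a counting interval that excluded equal levels. miR-27b-3p was 0.919-fold in the ethanol-fed library of experiment 1 and 1.22-fold in that of experiment 2. miR-24-3p was 0.799-fold in experiment 1 and 1.30-fold in experiment 2. With 1 library per condition in each experiment, the difference between the experiments was not tested, and differences between animals and between conditions cannot be told apart.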

How the results depend on the processing

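Counts of members at least 2-fold higher or lower stayed at 0 in experiment 1 under unscaled reads, median-of-ratios size factors, a total without the most abundant microRNA, a pseudocount of 0.1 read, no minimum, a minimum of 100 reads (7 members left) and no pseudocount, the last added after the data had been seen. In experiment 2 the count of higher members went from 0 to 1 with the total without the most abundant microRNA, 1 with the pseudocount of 0.1 read and 1 with no pseudocount, because the log2 ratio of miR-27a-5p, 1.00, lies on the threshold. The median log2 ratio of the members moved by less than the counting error in both experiments. Of 56 values of single members under other scalings and pseudocounts, 52 stayed within counting error. The 4 that moved were all of miR-27b-3p, which ranged from -0.16 to -0.073 in experiment 1 and from 0.28 to 0.29 in experiment 2 without changing direction. miR-23a-3p in experiment 1 ranged from -0.044 to 0.039 and changed direction within its counting error. Scalings shifted the median of all microRNAs by at most 0.048. The fit with the experiment as replicate block, added after the data had been seen and run by limma on the pair of within-table ratios, called 0 members, and the lowest adjusted p of all 283 microRNAs was 0.911. Depth limits the 5p forms of experiment 1 and miR-27b-5p in experiment 2, and no depth separates a difference between libraries from one between animals.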
